A study of Homo sapiens with 4 samples.

Results

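A set of 36 neuronal and neuroendocrine genes was followed in A673 cells, an established Ewing sarcoma line that carries the EWS-FLI1 fusion, after knockdown of SMPD1 or GPR64. The 36 genes are among the 23228 gene symbols listed for each library, and were selected on their known roles by someone who had the levels in these libraries in view. They encode RNA-binding proteins, neurofilaments, microtubule and growth cone proteins, adhesion molecules, synaptic vesicle proteins, granins, neurotrophin receptors, GABA-synthesising enzymes and 4 other neuronal proteins. All 4 libraries came from A673 cells transfected with siRNA by means of Lipofectamine RNAiMAX and harvested after 48 h. The library control_SMPD1 received scrambled siRNA and siSMPD1 received siRNA against SMPD1, the gene of acid sphingomyelinase, which splits sphingomyelin in the lysosome. The library control_GPR64 also received scrambled siRNA, and siGPR64 received siRNA against GPR64, an adhesion G protein-coupled receptor now named ADGRG2. Which control belongs to which knockdown was taken from the sample titles alone. The labels do not say whether the libraries of a pair were cultured and sequenced together. A673 is 1 line derived from 1 tumour, and the labels give its tissue as muscle.

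Ewing sarcoma is an undifferentiated small round cell tumour in which part of a neural gene programme is often detectable. Neurons and neuroendocrine cells share proteins that store and release peptides from dense-core granules, among them the granins, while neurofilaments, synapsins and IgLON adhesion proteins belong chiefly to neurons. In most other cells many of these genes are held down by the repressor REST, which binds RE1 elements, and by its corepressors.

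Each group held 1 library, so no difference has a replicate check. A ratio compares 2 libraries, and its 95% interval (exact Clopper-Pearson) covers counting error only. A gene is called higher or lower by a rule of size, which asks that the 2 libraries average at least 1 CPM, that they differ 2-fold or more and that the interval leave out equality. CPM are read counts scaled to library size, after TMM, as per-1000000 values, and 4 levels given without names follow the order control_SMPD1, siSMPD1, control_GPR64, siGPR64. The deposited counts summed to 19614913 in control_SMPD1 against 18849264 in siSMPD1, and 2882854 in control_GPR64 against 2534861 in siGPR64. With 3 counts as the limit, 0 counts in a library still allow 0.156 CPM in control_SMPD1 against 0.159 in siSMPD1, and 1.03 in control_GPR64 against 1.18 in siGPR64. SMPD1 itself had 414 CPM in control_SMPD1 against 91.7 in siSMPD1, a 4.52-fold lower level (4.29 to 4.76). The receptor gene GPR64 had 109 CPM in control_GPR64 against 50.1 in siGPR64, which is 2.16-fold lower (1.76 to 2.68). The controls differed too: SMPD1 was 7.85-fold lower in control_GPR64 than in control_SMPD1, and siGPR64 had 4.38-fold more SMPD1 than its own control. GPR64 was 3.57-fold lower in control_GPR64 than in control_SMPD1 (3.19 to 4.01). Against control_GPR64, siSMPD1 had 1.74-fold more SMPD1 (1.47 to 2.06). Of the 16 Ewing sarcoma markers, 15 reached 1 CPM in at least 1 library, and CD99 was listed at 0 counts in all 4. The muscle factors MYOD1, MYOG, MYF5 and MYF6 were at 0 in every library, and 1 of 14 skeletal muscle markers reached 1 CPM. In bulk RNA, fewer cells with a transcript and less of it per cell cannot be told apart.

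The neuronal set was partly present. Counts were found in all 4 libraries for 27 of the 36 genes, and 21 genes reached 1 CPM in each library. ELAVL2, ELAVL4, STMN2 and DCX had no counts in any library. Per kilobase of exon, the level averaged over the libraries was highest for UCHL1, a ubiquitin hydrolase of neurons, at 590.1 CPM per kb. TUBB3 followed with 76.7 CPM per kb, then NEFL with 35.8, NGFR with 31.6, SYT1 with 31.2, NEFM with 30.0, GAP43 with 26.4 and SCG2 with 23.2. Of the markers of mature neurons 5 of 13, and of those of chromaffin cells and sympathoblasts 2 of 11, reached 1 CPM in any library. RBFOX3, the NeuN antigen, had at most 1 count in a library, TH, the first enzyme of catecholamine synthesis, had 1 count in siSMPD1 alone, and DBH had none. The label of a neuronal and neuroendocrine set thus holds for the genes by their known roles, and not for a mature neuron or chromaffin cell as a whole.

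**Figure D1:**
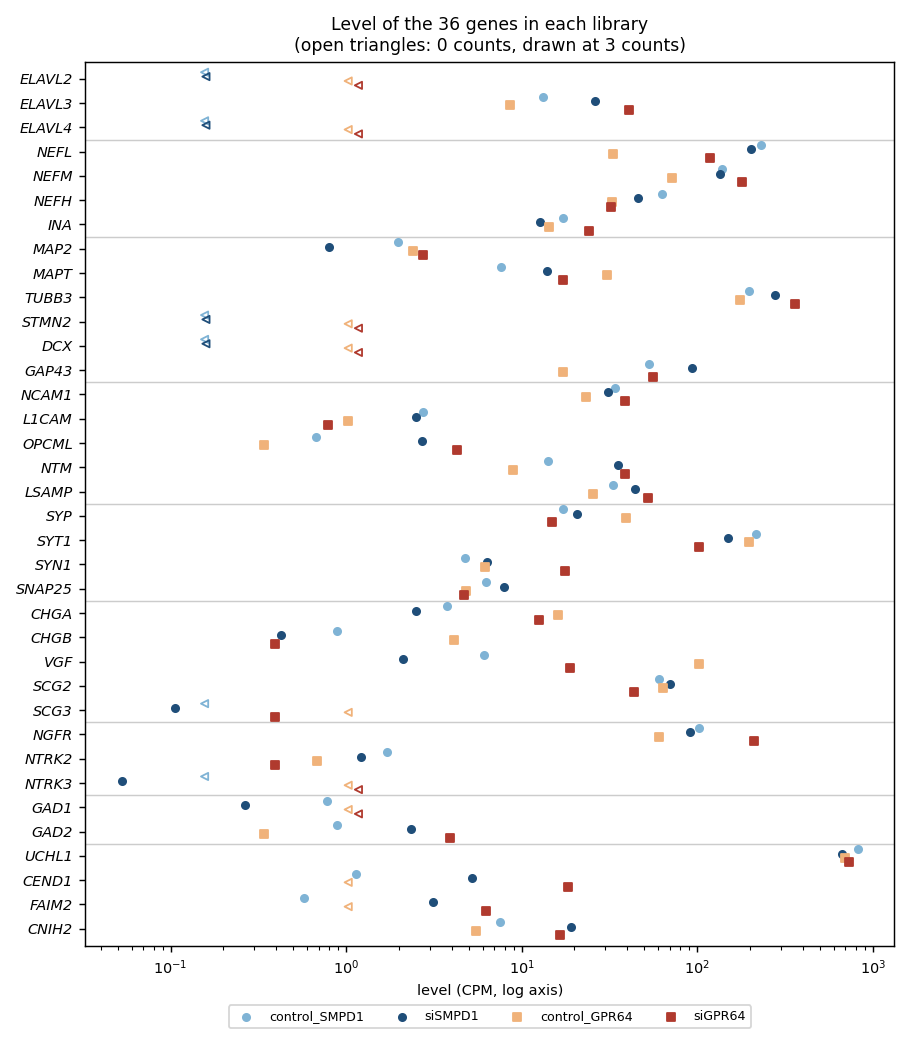
Level of each of the 36 genes in the 4 libraries, in CPM on a log axis, with genes grouped by role. Open triangles mark 0 counts and are drawn at the limit of 3 counts. UCHL1 lies between 667 and 821 CPM, while ELAVL2, ELAVL4, STMN2 and DCX are at 0 in all 4 libraries.

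More members were higher than lower by the rule of size in both knockdowns. In siSMPD1, 28 of the 36 genes had a mean of at least 1 CPM with the control, of which 6 were higher and 2 lower than in control_SMPD1. Over all 12749 genes measured in that pair, 2.49% were higher and 1.11% lower. In siGPR64, 27 genes were measured, of which 14 were higher and 3 lower than in control_GPR64, beside 6.56% higher and 5.18% lower over 12830 genes. The median log2 ratio of the measured members was 0.24 in siSMPD1 and 1.04 in siGPR64, beside -0.0039 and 0.014 for all measured genes. These ratios were known when the set was put together, so the counts describe it and are no evidence about it. In the SMPD1 pair 4 of the measured members, and in the GPR64 pair 5, reached the mean through 1 library while the other was under 1 CPM. Of the 26 genes measured in both pairs, CEND1, FAIM2, OPCML, NTM, CNIH2 and GAD2 were higher in both and VGF was lower in both, a pattern shown by 0.347% and 0.347% of 12386 genes. No member was past the rule in opposite directions in the 2 pairs.

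**Figure D2:**
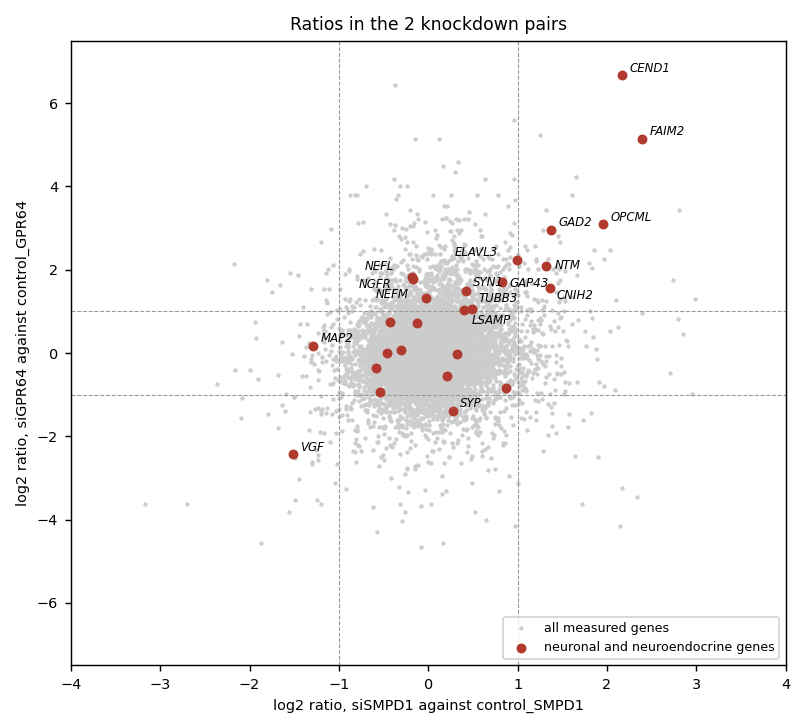
Log2 ratio of each gene measured in both pairs, siSMPD1 against control_SMPD1 on the horizontal axis and siGPR64 against control_GPR64 on the vertical axis. Grey points are the 12386 genes measured in both pairs, red points the 26 members among them, and dashed lines mark 2-fold. CEND1 and FAIM2, whose vertical values rest on 0 counts in control_GPR64 and a prior of 0.5 count, lie at the upper right and VGF at the lower left.

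CEND1, FAIM2 and CNIH2 were higher in both knockdowns, and UCHL1 was past the rule in neither. CEND1, which takes part in cell cycle exit of neuronal precursors, was at 1.15 CPM in control_SMPD1 against 5.25 in siSMPD1, and 0 in control_GPR64 against 18.4 in siGPR64. Both knockdown libraries lay above both controls. CEND1 was 4.50-fold higher in siSMPD1 than in its control (2.86 to 7.64). In siGPR64 it had 47 counts and its control 0, which is at least 17.9-fold higher when 3 counts are taken for the control, and the counting interval begins at 14-fold. FAIM2, a neuronal inhibitor of Fas-induced death, was at 0.573, 3.13, 0 and 6.27 CPM in the same order of libraries. FAIM2 was 5.26-fold higher in siSMPD1 (2.84 to 11.5). In siGPR64 it had 16 counts against 0, at least 6.10-fold higher by the same limit, with an interval that begins at 4.41-fold. CNIH2, an auxiliary subunit of AMPA-type glutamate receptors, was at 7.5, 19.2, 5.48 and 16.5 CPM. Against the paired control CNIH2 was 2.56-fold higher for siSMPD1 (2.11 to 3.13), and for siGPR64 the ratio was 2.94-fold (1.65 to 5.72). UCHL1 was the steadiest of the members with counts in every library, at 821, 667, 695 and 734 CPM, with its highest level 1.23 times its lowest.

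**Figure D3:**
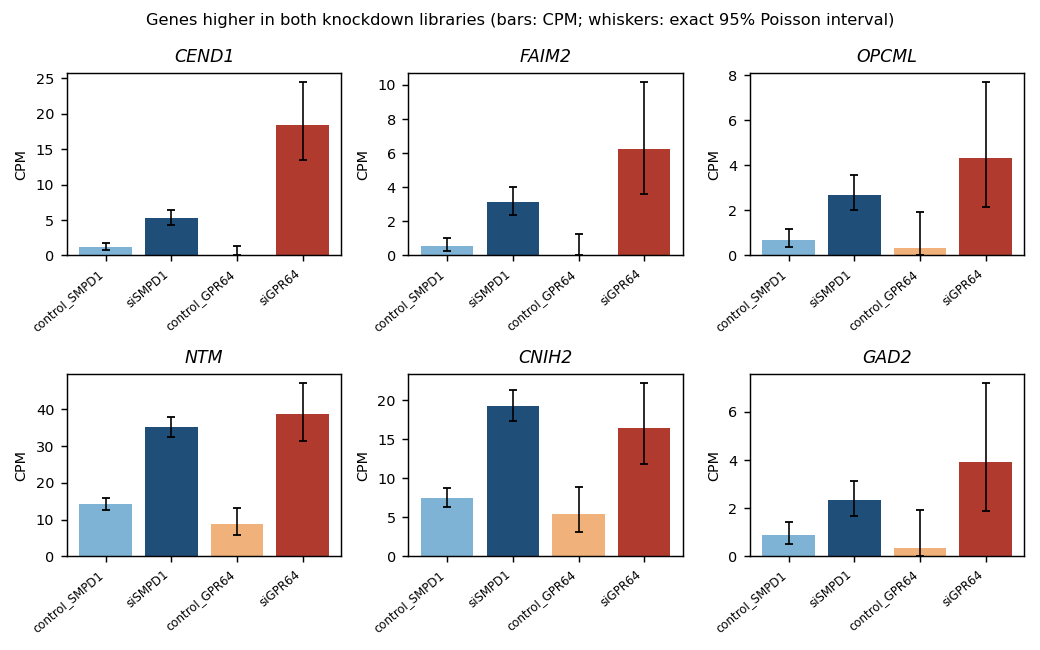
CPM of CEND1, FAIM2, OPCML, NTM, CNIH2 and GAD2 in the 4 libraries, as bars from 0, with whiskers for the exact 95% Poisson interval of the count. In each panel both knockdown bars stand above both control bars, and CEND1 and FAIM2 have 0 counts in control_GPR64.

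The promoters of CEND1 and CNIH2 are shown as examples from the 4 members on chromosome 11 that were higher in both pairs, picked after their letters were seen; the others are NTM and OPCML. Each is the stretch of 250 bases before the start in RefSeq's GRCh38.p14 table, 5′ to 3′ on the gene's strand, with capitals at the letters GGGCGG of an SP1 site on either strand. CEND1 lies at chr11:790091-790340 on the minus strand and CNIH2 at chr11:66277925-66278174 on the plus strand.
CEND1: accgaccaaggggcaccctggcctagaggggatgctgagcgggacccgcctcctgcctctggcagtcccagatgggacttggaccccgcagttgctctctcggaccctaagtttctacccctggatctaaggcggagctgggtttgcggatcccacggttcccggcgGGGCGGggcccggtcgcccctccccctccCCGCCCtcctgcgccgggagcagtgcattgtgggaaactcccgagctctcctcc
CNIH2: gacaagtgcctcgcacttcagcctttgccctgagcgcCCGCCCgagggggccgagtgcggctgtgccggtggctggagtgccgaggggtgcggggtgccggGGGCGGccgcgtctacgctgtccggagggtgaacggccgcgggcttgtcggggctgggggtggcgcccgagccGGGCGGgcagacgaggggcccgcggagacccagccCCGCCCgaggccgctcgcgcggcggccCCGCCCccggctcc
Their GC content was 68.8% and 80.0%, beside a mean of 57.2% over all 35116 promoters. The table holds 24 of the members with 50 promoters in all. The letters GGGCGG occurred in 22 of these 50 (44%), a share near the 42.6% of all promoters, and in none found for NTM. A match of letters is a description and not a bound site.

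The IgLON adhesion genes OPCML and NTM were higher in both knockdowns, and LSAMP in siGPR64. OPCML, NTM and LSAMP encode glycolipid-anchored proteins that act in neurite outgrowth and cell recognition. NTM was at 14.2 CPM in control_SMPD1 against 35.2 in siSMPD1, and 8.91 in control_GPR64 against 38.8 in siGPR64. The 2 knockdown libraries were alike and both stood above the controls, with ratios of 2.49-fold (2.16 to 2.88) and 4.29-fold (2.80 to 6.99). OPCML was at 0.677, 2.70, 0.343 and 4.31 CPM. It was 3.88-fold higher in siSMPD1 (2.14 to 8.01), and its 8.55-fold ratio in siGPR64 rested on 1 count in control_GPR64 against 11, with an interval of 1.83 to 541. LSAMP was at 33.4, 44.1, 25.3 and 52.5 CPM, and passed the rule in siGPR64 alone at 2.06-fold (1.55 to 2.79). NCAM1, the neural cell adhesion molecule CD56, was at 33.9, 31.2, 23.3 and 38.8 CPM and passed in neither pair. L1CAM, an axonal adhesion molecule, was at 2.76, 2.49, 1.03 and 0.783 CPM and was likewise past the rule in neither.

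The 2 glutamate decarboxylases, which make GABA, were near the limit of detection. GAD2 was at 0.885 CPM in control_SMPD1 against 2.33 in siSMPD1, and 0.343 in control_GPR64 against 3.92 in siGPR64. GAD2 was 2.59-fold higher in siSMPD1 (1.48 to 4.92). Its 7.81-fold ratio in siGPR64 rested on 10 counts against 1 (1.63 to 496). GAD1 stood at 0.781 and 0.265 CPM in the SMPD1 pair and at 0 in both libraries of the GPR64 pair, so its mean was under 1 CPM throughout. Its interval in siSMPD1, 1.02 to 10.4 times lower, rested on 5 counts against 15.

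The neuronal RNA-binding protein ELAVL3, also called HuC, stabilises AU-rich transcripts. ELAVL3 was at 13.2 CPM in control_SMPD1 against 26.1 in siSMPD1, and 8.56 in control_GPR64 against 41.1 in siGPR64. It was 4.72-fold higher in siGPR64 (3.08 to 7.76), while its 1.98-fold ratio in siSMPD1 (1.70 to 2.32) lay just outside the rule. Both knockdown libraries again lay above both controls. ELAVL2 and ELAVL4, its paralogs HuB and HuD, had no counts. At the 2-fold limit in the GPR64 pair, LSAMP at 2.06 and TUBB3 at 2.07 were just inside, and SYT1 at 1.92 and MAPT at 1.78 just outside.

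Of the 4 neurofilament genes, NEFL and NEFM were higher in siGPR64 and none was past the rule in siSMPD1. NEFL, the light subunit, was at 230.2 CPM in control_SMPD1 against 202 in siSMPD1, and 33.2 in control_GPR64 against 118 in siGPR64. The low library was control_GPR64, and siGPR64 lay below both libraries of the SMPD1 pair. NEFL was 3.53-fold higher in siGPR64 than in control_GPR64 (2.81 to 4.51) but 1.95-fold lower than in control_SMPD1 (1.74 to 2.20), so its direction turned with the control used. NEFM, the medium subunit, was at 138, 135, 72.3 and 179.8 CPM. It was 2.48-fold higher in siGPR64 (2.11 to 2.94) and 1.30-fold higher than in control_SMPD1 (1.18 to 1.44). NEFH, the heavy subunit, was at 63.4, 46.0, 32.5 and 32.5 CPM, and the internexin gene INA at 17.2, 12.8, 14.4 and 24.3 CPM, and neither was past the rule in either pair. All 4 neurofilament genes had lower values in siSMPD1 than in control_SMPD1, by 1.02-fold to 1.38-fold, and none of them passed the rule.

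Of the 6 genes of microtubules and the growth cone, TUBB3 and GAP43 were higher in siGPR64 and MAP2 was lower in siSMPD1. TUBB3, the neuronal beta-tubulin, was at 197 CPM in control_SMPD1 against 276 in siSMPD1, and 175 in control_GPR64 against 362 in siGPR64. Both knockdown libraries had more than both controls, and only the GPR64 pair passed, at 2.07-fold (1.85 to 2.31). GAP43, the growth cone protein, was at 53.1, 94.0, 17.1 and 56.4 CPM. It was 3.27-fold higher in siGPR64 than in control_GPR64 (2.37 to 4.64), yet siGPR64 and control_SMPD1 differed by 1.06-fold (0.885 to 1.26). MAP2, a dendritic microtubule protein, was at 1.98, 0.795, 2.40 and 2.74 CPM. It was 2.44-fold lower in siSMPD1 (1.34 to 4.87), the lowest of the 4 libraries, and its 1.13-fold ratio in siGPR64 rested on 7 counts in each library. MAPT, the axonal protein tau, was at 7.60, 13.9, 30.8 and 17.2 CPM, so the control of the GPR64 pair was the highest, and neither knockdown pair passed. STMN2 and DCX, which act on microtubules in growing and migrating neurons, had 0 counts.

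The 4 synaptic vesicle genes differed in direction in siGPR64, with SYN1 higher and SYP lower. SYN1, which tethers vesicles, was at 4.74 CPM in control_SMPD1 against 6.36 in siSMPD1, and 6.17 in control_GPR64 against 17.6 in siGPR64. The siGPR64 library stood apart from the other three and was 2.81-fold above its control (1.62 to 5.25). SYN1 shares exonic sequence with ARAF on the opposite strand, and ARAF was at 49.2, 51.0, 43.2 and 48.6 CPM in the same order. SYP, the vesicle protein synaptophysin, was at 17.1, 20.7, 39.4 and 14.9 CPM. It was 2.63-fold lower in siGPR64 than in control_GPR64 (1.82 to 3.93), but differed by 1.15-fold from control_SMPD1 (0.821 to 1.65). SYT1, the calcium sensor of release, was at 216, 149, 198 and 103 CPM, lower in each knockdown than in its control by 1.45-fold (1.38 to 1.52) and 1.92-fold (1.66 to 2.23), neither of which passed the rule. SNAP25, a membrane fusion protein, was at 6.30, 7.90, 4.80 and 4.70 CPM and passed in neither pair.

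The granins split by library: VGF, CHGA and CHGB were all highest in control_GPR64. VGF had the widest spread of the members with counts in all 4 libraries, its highest level being 48.2 times its lowest. VGF, a neurotrophin-responsive secretory protein, was at 6.09 CPM in control_SMPD1 against 2.12 in siSMPD1, and 102 in control_GPR64 against 18.8 in siGPR64. It was the only member lower by the rule in both knockdowns, by 2.85-fold for siSMPD1 (1.99 to 4.22) and by 5.39-fold for siGPR64 (3.99 to 7.53). The gap between the controls was larger than either, with VGF 16.6-fold higher in control_GPR64 than in control_SMPD1 (13.5 to 20.9). As a result siGPR64 lay 3.07-fold above control_SMPD1 (2.16 to 4.36), in the opposite direction to its paired ratio. CHGA, chromogranin A, was at 3.75, 2.49, 16.1 and 12.5 CPM. The pairs were apart and the knockdowns close to their controls, 1.5-fold lower in siSMPD1 (1.03 to 2.22) and 1.28-fold lower in siGPR64 (0.802 to 2.08), neither past the rule. CHGB, chromogranin B, was at 0.885, 0.424, 4.11 and 0.392 CPM, and was 7.47-fold lower in siGPR64 on 1 count against 12 (1.55 to 449). SCG2, secretogranin II, was at 61.0, 70.3, 64.1 and 43.5 CPM and passed in neither pair. SCG3, which sorts granins into granules, had 2 counts in siSMPD1, 1 in siGPR64 and none in the controls.

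**Figure D4:**
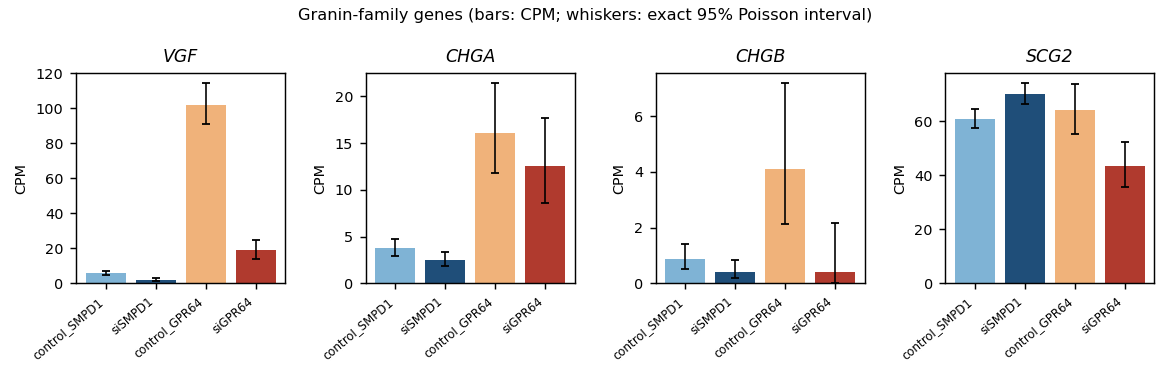
CPM of VGF, CHGA, CHGB and SCG2 in the 4 libraries, as bars from 0, with whiskers for the exact 95% Poisson interval of the count. VGF stands at 102 CPM in control_GPR64 and at 18.8 CPM or less in the other libraries, while SCG2 stays between 43.5 and 70.3 CPM.

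The promoters of VGF, CHGA and SYN1 are shown because these were the 3 members of 24 with the palindrome TGACGTCA, the cyclic AMP response element, in the 250 bases before a start. It lay in 3 of the 50 member promoters (6.0%) and occurs in 1.65% of the 35116 promoters of that length. Capitals mark TGACGTCA and, in SYN1, also TTCAGCACC, the left arm of an RE1 element, which 0.288% of promoters hold. VGF lies at chr7:101165570-101165819 on the minus strand, CHGA at chr14:92922900-92923149 on the plus strand and SYN1 at chrX:47619858-47620107 on the minus strand (GRCh38.p14, RefSeq, 5′ to 3′ on the gene's strand).
VGF: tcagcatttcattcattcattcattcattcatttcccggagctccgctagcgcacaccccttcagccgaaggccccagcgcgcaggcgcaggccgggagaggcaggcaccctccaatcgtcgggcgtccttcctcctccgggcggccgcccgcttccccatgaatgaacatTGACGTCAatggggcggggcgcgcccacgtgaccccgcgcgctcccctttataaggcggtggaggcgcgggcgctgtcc
CHGA: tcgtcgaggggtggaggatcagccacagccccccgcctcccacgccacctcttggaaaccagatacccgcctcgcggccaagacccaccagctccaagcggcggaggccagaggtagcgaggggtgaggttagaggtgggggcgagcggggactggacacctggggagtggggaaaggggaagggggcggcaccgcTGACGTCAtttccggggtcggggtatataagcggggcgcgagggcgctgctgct
SYN1: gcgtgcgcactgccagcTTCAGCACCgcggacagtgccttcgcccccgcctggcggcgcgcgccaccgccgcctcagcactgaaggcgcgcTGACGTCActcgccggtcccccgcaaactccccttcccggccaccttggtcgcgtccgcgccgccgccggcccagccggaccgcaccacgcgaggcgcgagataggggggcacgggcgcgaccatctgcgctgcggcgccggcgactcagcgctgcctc
The palindrome began 79 bases before the start in VGF, 54 in CHGA and 159 in SYN1. The exact letters GGACAGCGC, the right arm of the RE1 element, were found among members in VGF alone, on the opposite strand. They occurred in 0.427% of all promoters. In SYN1 the left arm is followed 2 bases later by ggacagtgc. It differs from GGACAGCGC by 1 letter and was not counted. These 3 genes did not share 1 pattern of levels: VGF and CHGA were highest in control_GPR64, and SYN1 in siGPR64. The letters GGAAGGAA, 2 units of the repeat that EWS-FLI1 is known to bind, lay in 4 of the 50 member promoters (8.0%), those of ELAVL4, GAD1, GAD2 and SCG3, and in 3.06% of all promoters. The letters TATAAA lay in 6 of the 50 (12%), near the 10.7% of all.

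Of the neurotrophin receptors, NGFR alone was well expressed. NGFR, the p75 receptor, was at 103 CPM in control_SMPD1 against 90.8 in siSMPD1, and 61.0 in control_GPR64 against 210.4 in siGPR64. The siGPR64 library was the highest of the 4, 3.44-fold above its control (2.91 to 4.11) and 2.05-fold above control_SMPD1 (1.86 to 2.25). NTRK2, the BDNF receptor, was at 1.72, 1.22, 0.685 and 0.392 CPM, with 2 counts and 1 count in the GPR64 pair. NTRK3, the NT-3 receptor, had 1 count in siSMPD1 and none elsewhere. Among other ligands and receptors of the neurotrophin and GDNF families, ARTN, a GDNF-family ligand, was higher in siGPR64, at 36.8 CPM against 9.59 in control_GPR64, with a log2 ratio of 0.20 against control_SMPD1. None of the 7 measured in the SMPD1 pair passed.

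**Figure D5:**
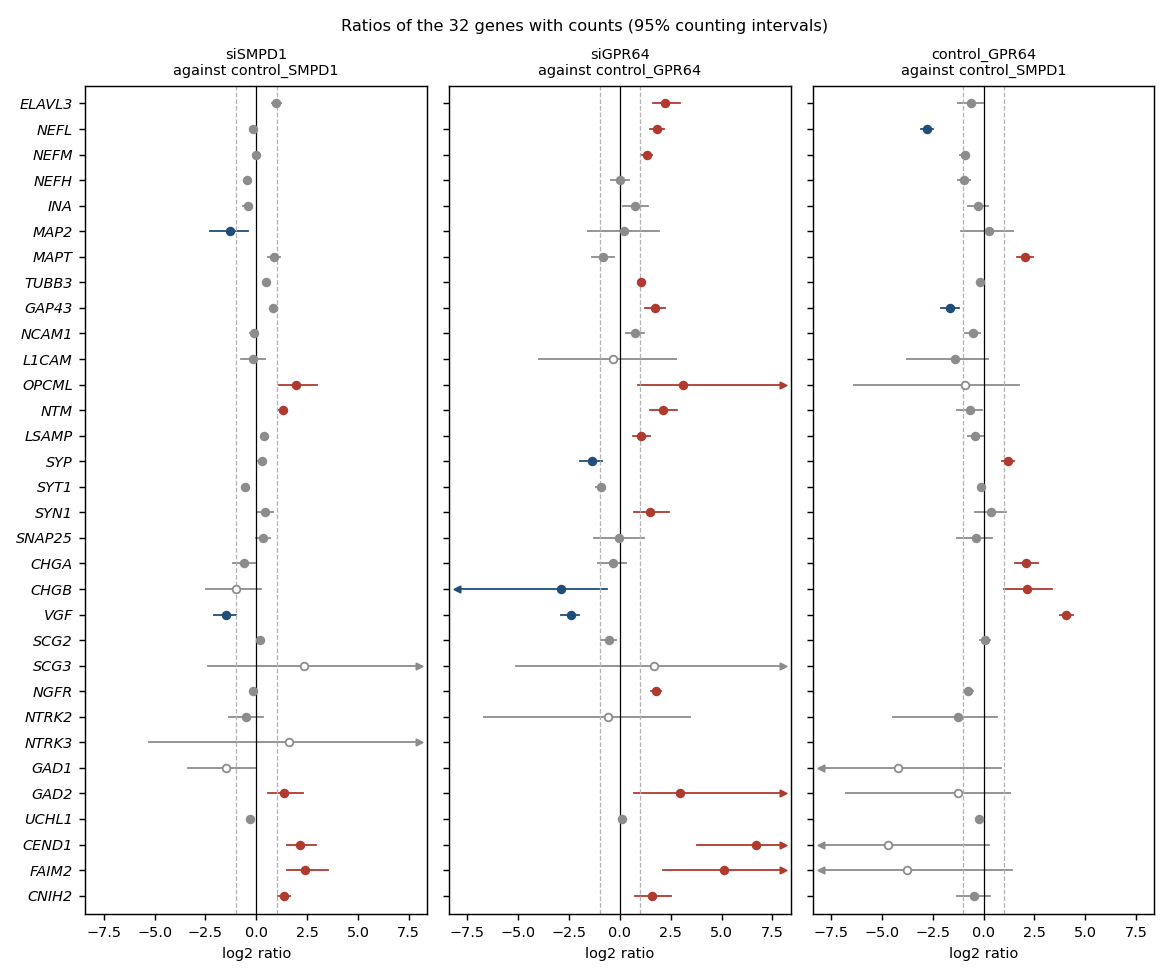
Log2 ratio of the 32 genes with counts in siSMPD1 and siGPR64 against their controls and between the controls, with 95% counting intervals; red is higher and blue lower by the rule of size, open points have a mean under 1 CPM, arrows run past the axis and dashed lines mark 2-fold. CEND1, FAIM2, OPCML, NTM, CNIH2 and GAD2 are red in both knockdown panels, VGF is blue in both and red between the controls, and a point with 0 counts in a library is placed with a prior of 0.5 count.

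The 2 scrambled controls bore the same treatment label, so their gap is the only measure here of how far unpaired libraries can lie apart. Between them 25 members were measured, of which 5 were higher and 2 lower in control_GPR64, beside 7.02% higher and 8.33% lower of all 12798 genes measured. The higher ones were MAPT at 4.04-fold (3.08 to 5.31), SYP at 2.30-fold (1.84 to 2.85), CHGA at 4.26-fold (2.91 to 6.29), CHGB at 4.47-fold (2.02 to 10.3) and VGF. The lower ones were NEFL at 6.92-fold (5.67 to 8.56) and GAP43 at 3.10-fold (2.34 to 4.21). Between the controls the median log2 ratio of the members was -0.39, beside -0.013 for all genes. Depth, and whatever else separated the pairs, cannot be told apart from the control used.

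Set against both controls, the 6 genes higher in siSMPD1 stayed at least 2-fold higher, which 1.37% of all genes did, and so did the lower genes MAP2 and VGF, beside 0.635% of all genes. In siGPR64, 9 of the 14 higher genes were at least 2-fold higher against both controls, beside 1.53% of all genes. They were ELAVL3, OPCML, NTM, SYN1, NGFR, GAD2, CEND1, FAIM2 and CNIH2. NEFL, NEFM, TUBB3, GAP43 and LSAMP were not. CHGB was the 1 lower gene that was also at least 2-fold lower against control_SMPD1, at 2.13-fold on 1 count with an interval that spans equality (0.354 to 94.4), beside 1.89% of all genes. These comparisons share libraries with the paired ones and are not separate evidence. Past the rule in none of the 3 paired and control comparisons were 12 of the members with counts, namely UCHL1, NCAM1, L1CAM, SYT1, SNAP25, SCG2, SCG3, NEFH, INA, NTRK2, NTRK3 and GAD1.

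Related genes outside the set were counted over lists of the same pathways, beside the shares of all genes given above (6.56% higher and 5.18% lower in siGPR64, 2.49% and 1.11% in siSMPD1). Of 26 other tubulin, microtubule and intermediate filament genes, 25 were measured in the GPR64 pair and 9 were higher in siGPR64, with none lower. MAP7D2 was at 2.74 CPM in control_GPR64 and 27.4 in siGPR64, KIF5C, a kinesin heavy chain, at 1.37 and 13.3, DPYSL5 at 82.2 and 325, and MAP1A at 113 and 413. Between the controls 7 of 23 measured genes of this list were lower in control_GPR64 and none was higher, and in siSMPD1 2 of 24 were higher and 1 lower. In siSMPD1 MAP1A was 2.76-fold lower, at 134 CPM against 370 in its control, the opposite direction to siGPR64, while against control_GPR64 its log2 ratio in siSMPD1 was 0.25. Of other SNARE and synaptic vesicle genes, 4 of 25 were higher and 1 lower in siSMPD1, and 2 of 28 higher and 5 lower in siGPR64. Among them RAB3B, a vesicle GTPase, was at 54.5 CPM in control_GPR64 and 163 in siGPR64, and UNC13A, a priming factor, at 26.7 and 6.66. Against control_SMPD1 both had the opposite sign in siGPR64, with log2 ratios of -0.67 and 0.76. SYT4, on 1 count against 20, and SYT11 kept the sign of their paired ratios, at -1.01 and 0.57. So did the remaining genes of this list past the rule in siGPR64. Of other IgLON and neural adhesion genes, 3 of 14 were higher in siGPR64 and 1 lower, while none of 13 passed in siSMPD1. NRCAM, an axonal adhesion molecule, stood at 63.4 CPM in control_GPR64 and 241.7 in siGPR64. Against control_SMPD1 the log2 ratios in siGPR64 were 3.29 for MAP7D2 and 2.55 for KIF5C, but 0.34 for DPYSL5, 0.16 for MAP1A and 0.16 for NRCAM.

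Genes of prohormone processing and dense-core granules outside the set gave 2 higher and 1 lower of 14 in siGPR64, and none of 13 in siSMPD1. NPY, a neuropeptide, was at 9.59 CPM in control_GPR64 and 39.2 in siGPR64, and PENK, the enkephalin precursor, at 29.5 and 63.1. Against control_SMPD1 their log2 ratios were 0.44 and 0.47. Other AMPA receptor genes gave 1 higher and 1 lower of 10 in siGPR64, both of them auxiliary subunits. CACNG4 was at 2.40 CPM in control_GPR64 and 22.3 in siGPR64, but also at 22.3 in control_SMPD1. CACNG3 was at 9.59 and 0.783 CPM, on 28 counts and 2, and was lower against control_SMPD1 as well, with a log2 ratio of -3.29. Other GABA genes gave 1 lower of 6 in siGPR64 and 0 of 5 past the rule in siSMPD1. Other neuronal RNA-binding proteins gave 1 higher of 9 in each knockdown. REST and its corepressors gave 0 of 18 past the rule in either knockdown or between the controls, and REST itself was at 49.1 CPM in control_SMPD1 against 48.1 in siSMPD1, and 40.1 in control_GPR64 against 42.7 in siGPR64. Of 17 measured neural transcription factors, GATA2 alone was past the rule in siGPR64, at 30.9 CPM against 10.96 and with a log2 ratio of 0.39 against control_SMPD1, and none passed in siSMPD1.

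Levels of markers of other cell types were set beside these values. Fibroblast and endothelial markers summed to 1072 CPM in control_SMPD1 against 1413 in siSMPD1, and 482 in control_GPR64 against 915 in siGPR64, and 3 of 8 measured were higher and 1 lower in siGPR64. Epithelial markers summed to 182, 148, 87.0 and 169 CPM, and KRT8, 1 of 2 measured in the GPR64 pair, was 3.92-fold higher in siGPR64. Ewing sarcoma markers summed to 4881, 5697, 4226 and 4908 CPM. Of these PAX7 was 5.23-fold higher in siGPR64, and STEAP2 and GLI1 were 2.02-fold and 2.17-fold lower. PAX7 was also 8.19-fold lower in control_GPR64 than in control_SMPD1. Against control_SMPD1 the log2 ratio in siGPR64 was -0.64 for PAX7 and 0.28 for GLI1, both of the opposite sign, and -0.41 for STEAP2. Of the mature neuron markers SLC17A7, a vesicular glutamate transporter, was higher in siGPR64, at 8.62 CPM against 3.77, 1 of 3 measured there. Immune markers summed to 32.9, 29.1, 24.7 and 46.2 CPM, and CD68 was 2.47-fold higher in siGPR64 on 18 counts against 8. Against control_SMPD1 CD68 and KRT8 had the opposite sign, with log2 ratios of -0.53 and -0.13. The glial markers S100B and SOX10 were at 0 in every library. Whether these shifts play a part in those of the neuronal genes was not tested.

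Exons of 10 of the 36 genes overlap another gene on the opposite strand in GENCODE 29, those of 4 overlap one on the same strand, and 23 have neither. The 10 are NEFL, NEFM, NEFH, NCAM1, SYP, SYT1, SYN1, NGFR, GAD1 and CNIH2. No source used here gives the strand setting of the counting, so reads of such partners cannot be told apart.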

How the data were processed

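Total RNA was depleted of ribosomal RNA (KAPA RNA HyperPrep with RiboErase) and read from both ends, as the labels' protocols state. Per the submitters' processing notes, bcl2fastq, TopHat2, SAMtools and HTSeq were used with the build hg19; the sources used here name no version, annotation, counting mode or strand setting. The deposited values are raw counts of reads per gene symbol, with no normalization by the authors, in 1 library per group. The 5 HTSeq summary lines, 36.5% to 44.8% of the entries, were left out.

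From these counts, CPM and ratios were computed after TMM scaling (edgeR 4.0.16, R 4.3.3), with 0.5 count added in proportion to the library's size. Where a library had 0 counts, 3 were used and the ratio is a lower bound. No p-value is given for any pair. Intervals and limits cover counting error only, and reads without molecular identifiers are not independent molecules. Alternatives were DESeq2 1.42.0 size factors, total gene counts, other filters, priors and folds, the other control, and edgeR's quasi-likelihood test and DESeq2 with the controls pooled as 1 group. Scripts were checked on simulated data. Named genes are the 36 members, both targets, up to 4 genes per list past the rule, and PAX7, STEAP2, GLI1, KRT8 and ARAF with the marker genes checked at 0; some genes that the rule names are left out, and some results are not reported here. The members and the 18 lists were chosen with earlier results of these data known. Promoters come from RefSeq's GRCh38.p14 table, and exon lengths and overlaps from GENCODE 29 on GRCh38, which is not the build of the counts, so no coordinates were joined to them. All 36 symbols matched GENCODE 29 and 24 the promoter table.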

Additional observations from a re-analysis of the deposited data

How the results depend on the processing

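The number of members past the rule of size was 8 in siSMPD1, 17 in siGPR64 and 7 between the controls, and it was within 1.5 times of that with DESeq2 size factors, total gene counts, no filter on low counts or a prior of 2 counts. In siSMPD1 it was 2 at a mean of at least 5 CPM, and 14 against the other control, where the median log2 ratio was 0.62 instead of 0.24. Against that control 1356 of all 12887 measured genes were higher and 1034 lower, beside 318 and 141 of 12749 against control_SMPD1. In siGPR64 the median was 0.57 against the other control instead of 1.04. Between the controls 12 members passed at 1.5-fold. Shares over all genes were not counted at 5 CPM or at 1.5-fold. Of members past the rule in siGPR64, NEFL (log2 ratio -0.96) and VGF (1.62) had the opposite sign against the other control. Signs also turned among members not past the rule in a pair. In siGPR64, CHGA went from -0.36 to 1.73 and MAPT from -0.83 to 1.18. In siSMPD1, NEFL went from -0.19 to 2.60 and MAPT from 0.87 to -1.14. The cause was not tested. With both controls pooled as 1 group, which leaves 1 residual degree of freedom, edgeR's quasi-likelihood test and DESeq2 each called 0 members at an adjusted p of 0.05 in siSMPD1 and 0 in siGPR64. Each knockdown group held 1 library in these fits, so counts at an unadjusted p are not given. Over all genes tested the same fits called almost none, so the 0 is not particular to the members. The low depth of the GPR64 pair limits genes under about 1 CPM there.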

Other observations

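A look at position, made after the values were seen, counted genes by chromosome in the RefSeq table. Of the 43 genes higher by the rule of size in both knockdown pairs, 39 had a chromosome there, and 10 of these lay on chromosome 11 (25.6%), beside 641 of the 10749 genes measured in both pairs with a chromosome (5.96%). The members CEND1, CNIH2, NTM and OPCML are 4 of those 10, and 5 of all 36 members lie on that chromosome. The members were chosen with these ratios known, and no test was made.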
